A study of Mus musculus with 2 samples.

Results

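The 8 interferon regulatory factor genes Irf1, Irf2, Irf3, Irf4, Irf5, Irf7, Irf8 and Irf9 were examined in peak lists of accessible chromatin from mouse spleen. The members were taken by name from GENCODE vM21, and each locus was the gene body with 50 kb on each side. They are 8 of 21938 protein-coding genes, and their loci span 984.86 kb. The loci held 53 of the 25343 peaks of 1 library and 151 of the 89382 peaks of the other.

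The samples were formalin-fixed, paraffin-embedded (FFPE) mouse spleen profiled by scFFPE-ATAC, in which an FFPE-adapted Tn5 transposase inserts barcoded adapters into open chromatin of single nuclei. One library was made from nuclei that had not been purified by density gradient centrifugation, which removes debris, and is called the library without gradient. The other was made in a 50 µL Tn5 reaction, and its label does not say whether its nuclei passed a gradient. The label of the library without gradient gives no reaction volume, so the libraries may differ in gradient, volume or both. The study's methods describe spleens of 8-week-old C57BL/6J mice of both sexes, and the labels do not say which animals went into which library. Each condition had 1 library and peaks were called on all reads of a library together, so no difference between the libraries could be tested and a peak cannot be assigned to a cell type.

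The numbers of reads and cells are not part of the peak lists and were not used here, so depth is known only through the number of peaks. The lists may also differ in quality. For mouse FFPE spleen without the gradient, the study reports weaker enrichment at start sites, more duplicates and a smaller share of reads in peaks. It could not clearly separate cell types in that condition. The part of quality in the differences between the lists was not tested. Fold enrichment, the read pileup at a peak's summit over its local background, and −log10 q, the significance of that enrichment, both depend on depth, so they were ranked within a list. Of the spleen marker lists, the promoters of 3 of 6 B cell and 2 of 7 T cell genes carried a peak in the library without gradient. So did those of 1 of 5 macrophage and 0 of 5 dendritic cell genes. In the same order, the counts in the 50 µL library were 6 of 6, 5 of 7, 4 of 5 and 4 of 5. Over all protein-coding genes the share was 43.7% without gradient and 56.6% in the 50 µL library. Of 6 genes used as markers of other tissues, Ckm and Cela1 had a promoter peak in both libraries and Gfap in the 50 µL library, while the other 3 had none. In the 50 µL library the −log10 q of Ckm, 69.8, was above that of every spleen marker, the highest being Spic at 69.6. A promoter peak is read here as open chromatin in a list and not as expression of the gene.

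Interferon regulatory factors share a DNA-binding domain that recognizes GAAA repeats, known as the interferon-stimulated response element (ISRE). Irf3, Irf5 and Irf7 act downstream of pathogen sensors to switch on interferon and cytokine genes, and Irf1 and Irf9 act downstream of the interferon receptors. Irf2 competes with Irf1 for binding, and Irf4 and Irf8 direct B cell, plasma cell and myeloid development together with partner factors. Irf4 and Irf8 bind composite sites, EICE with the Ets factor PU.1 and AICE with AP-1 factors, whereas dimers of activated STAT proteins bind the GAS element.

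Of the 11 RefSeq promoters of the 8 members, each running from 250 bases before to 50 bases after a start site, 3 held any of the 7 motifs searched. They were the promoters of Irf1, Irf2 and Irf8, and they are printed up to the first annotated start because all 3 contain the GAS pattern TTCNNNGAA. Capitals mark motif matches, and each line runs 5′ to 3′ on the plus strand of GRCm38 (mm10), the direction of transcription of all 3 genes. The Irf1 stretch is chr11:53769764-53770013, the Irf2 stretch is chr8:46739495-46739731 and the Irf8 stretch is chr8:120736108-120736357.
Irf1: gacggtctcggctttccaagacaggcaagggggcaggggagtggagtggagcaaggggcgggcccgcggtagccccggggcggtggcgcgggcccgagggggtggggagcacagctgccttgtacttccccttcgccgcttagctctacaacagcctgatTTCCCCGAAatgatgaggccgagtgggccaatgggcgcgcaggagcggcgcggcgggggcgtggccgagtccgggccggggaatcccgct
Irf2: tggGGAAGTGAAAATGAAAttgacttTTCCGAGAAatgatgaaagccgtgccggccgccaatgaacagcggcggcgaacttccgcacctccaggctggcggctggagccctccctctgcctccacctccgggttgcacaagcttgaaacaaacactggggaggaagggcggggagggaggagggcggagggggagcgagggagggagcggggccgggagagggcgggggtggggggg
Irf8: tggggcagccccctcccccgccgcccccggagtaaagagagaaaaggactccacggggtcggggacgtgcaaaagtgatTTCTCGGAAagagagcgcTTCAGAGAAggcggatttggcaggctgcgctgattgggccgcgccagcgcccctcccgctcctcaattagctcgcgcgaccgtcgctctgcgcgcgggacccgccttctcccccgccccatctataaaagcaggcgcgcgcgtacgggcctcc

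In the Irf1 promoter the GAS match TTCCCCGAA began 90 bases before the RefSeq start. In Irf8 the matches TTCTCGGAA and TTCAGAGAA began 171 and 153 bases before the start. In Irf2 the match TTCCGAGAA began 224 bases before the start, next to an EICE match and an ISRE match that overlap each other at 247 and 241 bases before it. Over the 20150 promoters of protein-coding genes in the same table, 7.74% held the GAS pattern, 3.42% the ISRE pattern (GAAA, 2 bases, GAAA) and 2.57% the EICE pattern (GGAA, 2 bases, GAAA). A match shows the letters of a motif and not a bound site. Each motif was searched as a single fixed pattern, so variants of a motif with other letters were not marked. Peaks of both libraries covered at least 1 base of the printed Irf1 and Irf8 promoters, and a peak of the 50 µL library alone covered the RefSeq promoter of Irf2.

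All 8 members had a peak within 1 kb of an annotated transcription start site (TSS) in both libraries, beside 43.7% of protein-coding genes in the library without gradient and 56.6% in the 50 µL library. The members have between 2 and 13 annotated start sites, and a gene with more of them has more chances of a peak; the part of this in the count was not tested. With the single 5′ end of each gene in place of all its start sites, 6 of 8 members had a peak in the library without gradient, where the share of all genes was 39.6%, and 7 of 8 in the 50 µL library, where it was 51.9%. Irf5 lacked a peak at the 5′ end in both libraries and Irf2 lacked one in the library without gradient.

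**Figure D1:**
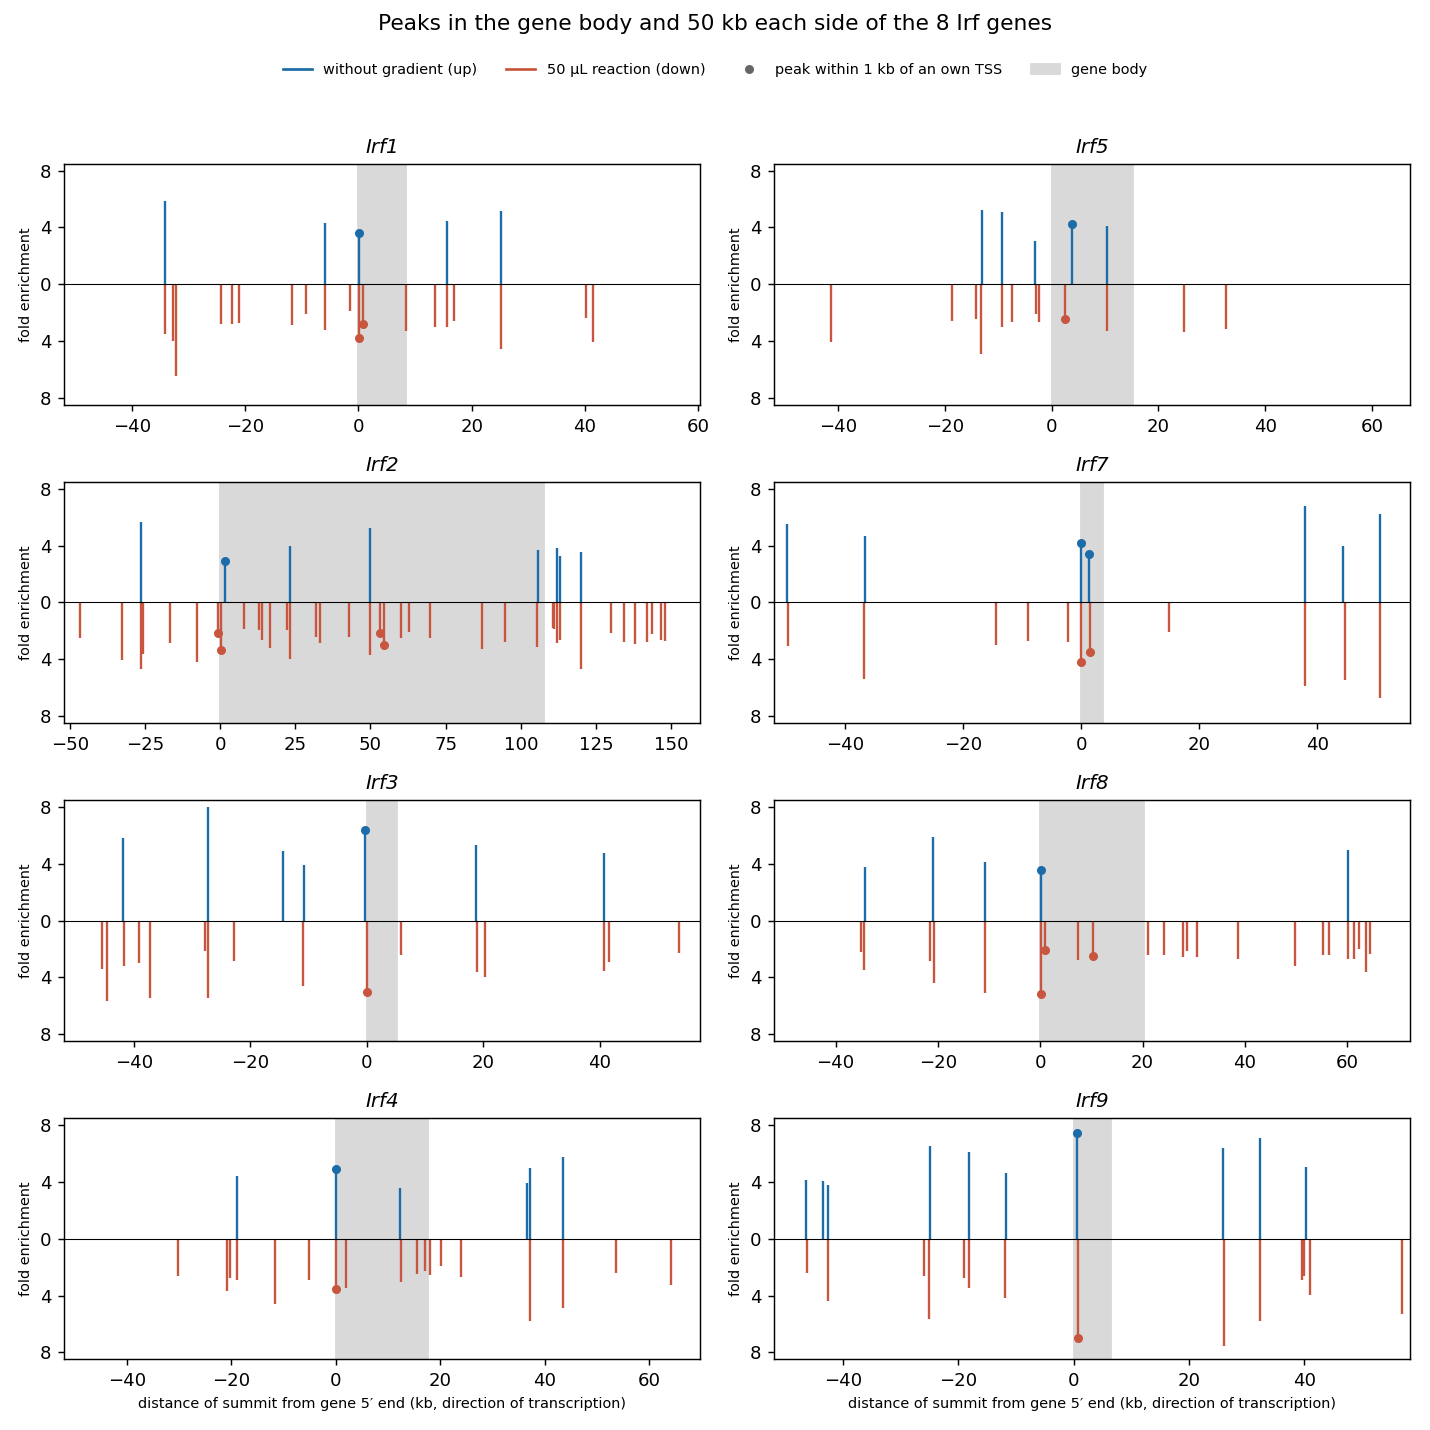
Peaks along the 8 loci. The horizontal axis is the distance of the peak summit from the 5′ end of the gene in kb, in the direction of transcription, and the height of each line is fold enrichment, drawn upward for the library without gradient and downward for the 50 µL library. Dots mark peaks within 1 kb of a start site of the gene itself, grey marks the gene body, and every locus shows at least 1 such dot in each library.

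Irf1 is an activator that is switched on after interferon gamma. Its promoter peak in the library without gradient, chr11:53769834-53770202, had a fold enrichment of 3.58 and a −log10 q of 5.27. The 50 µL peak at chr11:53769692-53770251 had a fold enrichment of 3.80 and a −log10 q of 39.3. Among genes with a promoter peak, the −log10 q stood at percentile 3.90 in the first list and at percentile 48.7 in the second. Among all peaks of a list, the 2 peaks stood at percentiles 8.32 and 88.3. All 5 peaks of the library without gradient in this locus overlapped a peak of the 50 µL library, which had 19. The most significant distal peak, meaning a peak over 1 kb from every annotated start site, lay at −32.2 kb from the 5′ end in the 50 µL library with a fold enrichment of 6.44 and a −log10 q of 66.3, and no peak of the other library overlapped it. That of the library without gradient lay close by, at −34.2 kb, with a fold enrichment of 5.88 and a −log10 q of 13.1. A far upstream peak was thus more significant than the promoter in each list, but it was not the same peak. Of the 3 peaks of the 50 µL library between −34.1 and −32.2 kb, only that at −32.2 kb exceeded the promoter. The one at −34.1 kb, which overlapped the peak without gradient, had a −log10 q of 19.2, and the one at −32.7 kb had 26.3.

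Irf9 is the DNA-binding subunit of ISGF3, the complex that carries the type I interferon signal to its target genes. It had the most significant promoter peak of the family in both lists. The peak without gradient, chr14:55603886-55604585, had a fold enrichment of 7.45 and a −log10 q of 20.6, at percentile 80.0. The 50 µL peak, chr14:55603846-55604731, had a fold enrichment of 6.97 and a −log10 q of 82.9, at percentile 98.4. Both summits lay in coding sequence by the annotation, at 0.651 and 0.668 kb from the 5′ end. The Irf9 locus was the most gene-dense, with 16 other genes in the window, and 8 of its 10 peaks without gradient and 12 of its 14 peaks in the 50 µL library lay at promoters of other genes. Among these genes were Psme1 and Psme2, which encode proteasome activator subunits, Rnf31, Emc9, Ipo4, Tm9sf1, Dcaf11 and Mdp1. Only 1 peak of the locus in each library lay over 1 kb from every start site, and its density of such peaks in the 50 µL library was at percentile 27.3 of all genes, below the median, unlike the 7 other members.

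Irf3 is a latent factor that the kinase TBK1 activates to induce interferon beta. Its promoter peak in the library without gradient, chr7:44997215-44997777, had a fold enrichment of 6.37 and a −log10 q of 15.0, and that of the 50 µL library, chr7:44997045-44998108, had 5.04 and 53.0. Both peaks also lay within 1 kb of a start site of Bcl2l12, so they cannot be assigned to Irf3 alone. The −log10 q was above the median of genes with a promoter peak in both lists, at percentiles 57.9 and 73.7. Of 16 peaks in the 50 µL library, 7 lay at promoters of other genes, among them Prmt1, Scaf1, Rras and Cpt1c. Its leading distal peak lay at −41.8 kb in the library without gradient, with a −log10 q of 11.1, and at −44.6 kb in the 50 µL library, with a −log10 q of 39.1. The start site nearest to these peaks was that of Tsks, at 1418 and 1099 bp, so they cannot be assigned to Irf3. Leading distal peaks in other loci, such as those of Irf4, Irf7 and Irf8, also lay nearest to start sites of other genes. Distal peaks are thus named by locus and are not assigned to the member.

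Irf7 is induced by interferon and is the main driver of type I interferon in plasmacytoid dendritic cells. It was the one member with 2 peaks near its own start sites in both libraries. Without gradient the peak at the 5′ end, chr7:141266381-141266681, had a fold enrichment of 4.19 and a −log10 q of 7.76, and the peak inside the gene, at 1.37 kb, had 3.42 and 4.45. The 50 µL peak at the 5′ end, chr7:141265746-141266736, had a fold enrichment of 4.18 and a −log10 q of 40.7, and the one inside the gene, at 1.46 kb, had 3.52 and 27.1. The peak at the 5′ end ranked above the internal one in both lists, and all 7 peaks of the library without gradient in this locus overlapped 1 of the 11 in the 50 µL library. Away from start sites, the most significant 50 µL peak lay at −36.7 kb, with a fold enrichment of 5.38 and a −log10 q of 33.0. In the library without gradient it lay at −49.8 kb, with 5.53 and 8.79.

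Irf5 acts downstream of Toll-like receptors and the adaptor Myd88 to induce inflammatory cytokines. It was the only member without a peak within 1 kb of its 5′ end in either library, although its promoter region had the highest GC content of the 8, at 70.3%. Its promoter peak lay inside the gene in each library. In the library without gradient the summit was 3.74 kb from the 5′ end (chr6:29530232-29530433, fold enrichment 4.25, −log10 q 8.72), and the peak covered no start site, its edge being 815 bp from the nearest. The 50 µL peak, with its summit at 2.60 kb (chr6:29529083-29529413, fold enrichment 2.48, −log10 q 13.6), covered an internal start site, and the 2 peaks did not overlap. Among genes with a promoter peak in the 50 µL library, its −log10 q stood at percentile 9.26, the lowest of the family. A distal peak at −13.1 kb without gradient and at −13.2 kb in the 50 µL library was shared, with fold enrichments of 5.25 and 4.92 and −log10 q of 10.6 and 40.6, and it exceeded the promoter peak in each list.

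Irf4 is needed for plasma cells and for effector T cells. Its promoter peak was chr13:30748938-30749371 in the library without gradient, with a fold enrichment of 4.93 and a −log10 q of 12.4, and chr13:30749129-30749468 in the 50 µL library, with 3.51 and 30.4. These values stood at percentiles 43.5 and 32.1. The most significant distal peak of the 50 µL library lay downstream at 37.2 kb (chr13:30785886-30786606), with a fold enrichment of 5.78 and a −log10 q of 66.1, and in the library without gradient it lay at 43.4 kb, with 5.75 and 13.2. Both downstream positions carried a peak in both lists. Upstream, the 50 µL library had 6 peaks between −30.2 and −5.11 kb, of which the peak at −11.7 kb was the most significant at 49.1, while the library without gradient had 1, at −19.0 kb.

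Irf8 specifies dendritic cells and monocytes and takes part in B cell development. Its promoter peak moved most within the lists. The peak without gradient, chr8:120736177-120736555, had a fold enrichment of 3.53 and a −log10 q of 5.14, at percentile 3.56. The 50 µL peak, chr8:120736051-120736673, had a fold enrichment of 5.14 and a −log10 q of 64.5, at percentile 88.2. Upstream of the gene, 3 sites were shared by both libraries. At −20.9 kb the library without gradient had a fold enrichment of 5.89 and a −log10 q of 12.8, and at −20.7 kb the 50 µL library had 4.42 and 38.6. At −10.8 kb the fold enrichments were 4.14 and 5.12 and the −log10 q were 7.90 and 61.8, and at −34.3 and −34.4 kb the fold enrichments were 3.75 and 3.48. The site at −20.9 kb was the most significant distal peak without gradient and the site at −10.8 kb was that of the 50 µL library.

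Downstream of Irf8 the 50 µL library had 14 peaks and the library without gradient had 1. The 14 lay at 21.1, 24.1, 27.9, 28.7, 30.6, 38.6, 49.7, 55.3, 56.3, 60.2, 61.3, 62.3, 63.7 and 64.4 kb from the 5′ end. Their fold enrichments ran from 2.00 at 62.3 kb to 3.60 at 63.7 kb, all below the 5.14 of the promoter. The 1 peak of the library without gradient lay at 60.2 kb (chr8:120796376-120796661), with a fold enrichment of 4.95 and a −log10 q of 10.6, and it overlapped the 50 µL peak at the same distance, which had 2.68 and 13.4. Of the 14, the peak at 63.7 kb, with a −log10 q of 24.1, was the only one among the 25343 most significant peaks of the 50 µL list, the length of the other list. Enhancers of Irf8 active in dendritic cells and other myeloid cells are known at about 32, 41 and 56 kb downstream of the start. Within 1500 bp of these positions, measured to the nearer edge of a peak, the 50 µL library had 1, 0 and 2 peaks, the nearest edges being 1.29, 2.32 and 0.183 kb away, and the library without gradient had none. The positions are approximate and were not taken from the files.

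**Figure D2:**
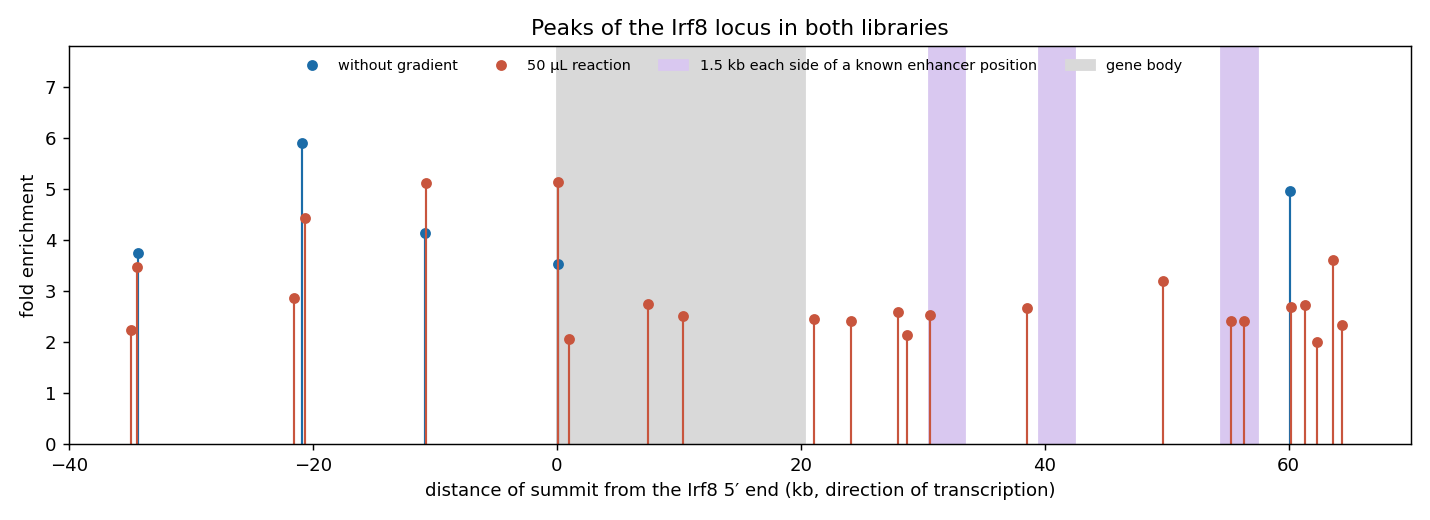
Peaks of the Irf8 locus. The horizontal axis is the distance of the summit from the Irf8 5′ end in kb and the vertical axis is fold enrichment, with the library without gradient in blue and the 50 µL library in red. Grey marks the gene body and violet the known enhancer positions with 1500 bp each side. The 14 downstream peaks of the 50 µL library lie between 2.00 and 3.60 fold enrichment.

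Irf2 competes with Irf1 at shared sites and is mostly described as a repressor. It has the longest gene of the 8, at 107.727 kb. The library without gradient had no peak at its 5′ end, and its own-promoter peak, chr8:46741202-46741484, covered no start site. Its edge lay 936 bp from the nearest one, its summit was 1.65 kb from the 5′ end, and it had a fold enrichment of 2.92 and a −log10 q of 4.10, at percentile 1.29. A 50 µL peak at the 5′ end, chr8:46739270-46740424, had a fold enrichment of 3.36 and a −log10 q of 35.3, at percentile 41.1, and it did not overlap the former. This 50 µL peak also covered a start site of Gm16675, so it cannot be assigned to Irf2 alone. The locus held 38 peaks in the 50 µL library, 14 of them in the gene body away from any start site, against 8 peaks without gradient. The most significant distal peak without gradient was intronic, at 49.9 kb, with a fold enrichment of 5.21 and a −log10 q of 13.9, and the 50 µL library had a peak with 3.70 and 39.3 at the same distance. The most significant distal peak of the 50 µL library lay at −26.3 kb, with 4.68 and 49.1, and it too was shared.

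Over all members the most significant promoter peak had a median fold enrichment of 4.22 without gradient and 3.99 in the 50 µL library, beside 5.72 and 4.51 over all genes with a promoter peak. The median −log10 q of the members was 8.24 beside 13.6 over all such genes without gradient, and 40.0 beside 40.0 in the 50 µL library. Only Irf3 and Irf9 lay above the all-gene median −log10 q in the library without gradient, and Irf3, Irf7, Irf8 and Irf9 did in the 50 µL library. In the latter, the order from highest to lowest was Irf9, Irf8, Irf3, Irf7, Irf1, Irf2, Irf4 and Irf5, and without gradient it was Irf9, Irf3, Irf4, Irf5, Irf7, Irf1, Irf8 and Irf2. Irf9 was first in both, Irf8 moved from seventh place to second, and no replicate gives the spread of these ranks.

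**Figure D3:**
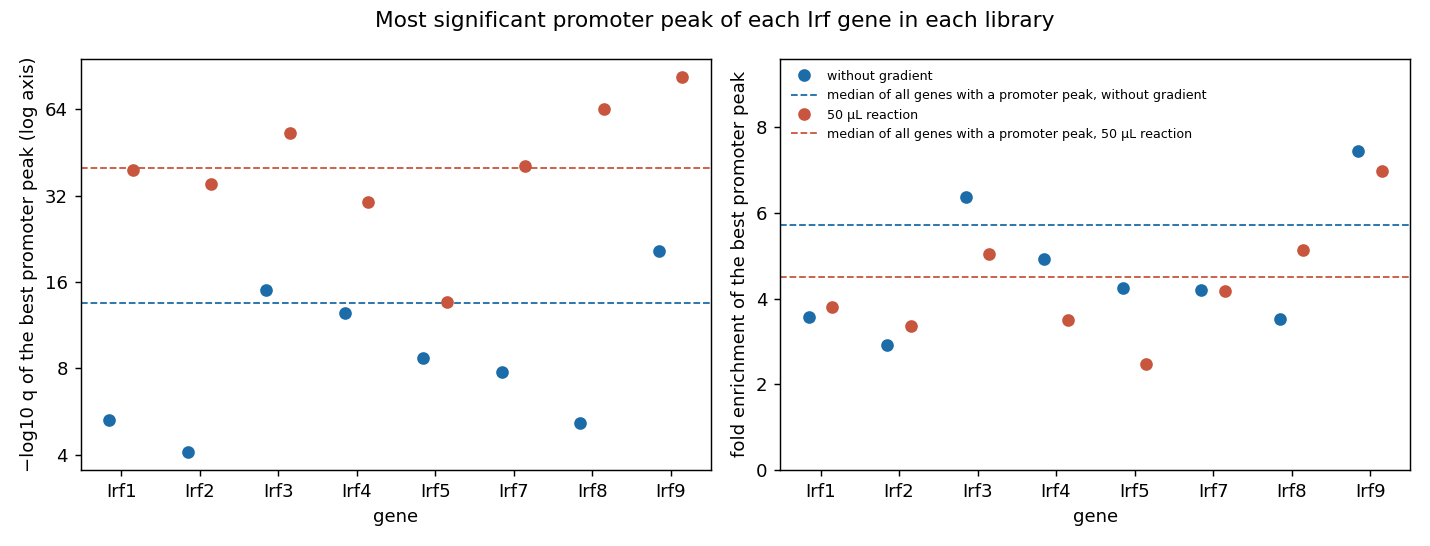
Most significant promoter peak of each member, as −log10 q on a log axis (left) and as fold enrichment (right). Blue points are the library without gradient, red points the 50 µL library, and dashed lines the medians over all genes with a promoter peak in that library. Irf9 is the highest in both panels and in both libraries, and Irf8 is above the line in the 50 µL library alone.

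CpG content was measured over 500 bp each side of the 5′ end of each member, as a feature of the reference sequence. Irf4, Irf7 and Irf9 had observed-to-expected CpG ratios of 0.364, 0.319 and 0.327, below the median of 0.552 over all protein-coding genes. The other 5 members ran from 0.698 in Irf2 to 0.922 in Irf1. Irf9 had the strongest promoter peak with a low CpG ratio, and Irf5, with a ratio of 0.786, had no peak at the 5′ end, so the order by CpG ratio was not the order by promoter peak.

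The loci held more peaks than most genes did. Peaks per 100 kb in the 8 loci together were 5.38 without gradient and 15.3 in the 50 µL library. The median over members was 4.85 and 15.2, beside 1.90 and 6.45 over all protein-coding genes, and each of the 8 members was above the all-gene median in both libraries. In the library without gradient Irf9 was densest, at percentile 98.8, followed by Irf7 at 94.4 and Irf3 at 94.0. In the 50 µL library Irf8 was densest, at percentile 97.7, followed by Irf2 at 96.9 and Irf1 at 95.9. For peaks over 1 kb from every start site in the 50 µL library, Irf8 stood at percentile 99.5, Irf2 at 99.1, Irf4 at 98.7 and Irf1 at 98.3, while Irf3 stood at 81.3, Irf5 at 77.7, Irf7 at 69.7 and Irf9 at 27.3. The loci of Irf3, Irf7 and Irf9 contain 10, 8 and 16 other genes. Those of Irf8, Irf2, Irf4 and Irf1 contain 3, 4, 4 and 6. The Irf5 locus contains 5, fewer than that of Irf1, and its percentile was 77.7 beside 98.3 for Irf1. The part of gene density and of the unequal length of the lists in these ranks was not tested.

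**Figure D4:**
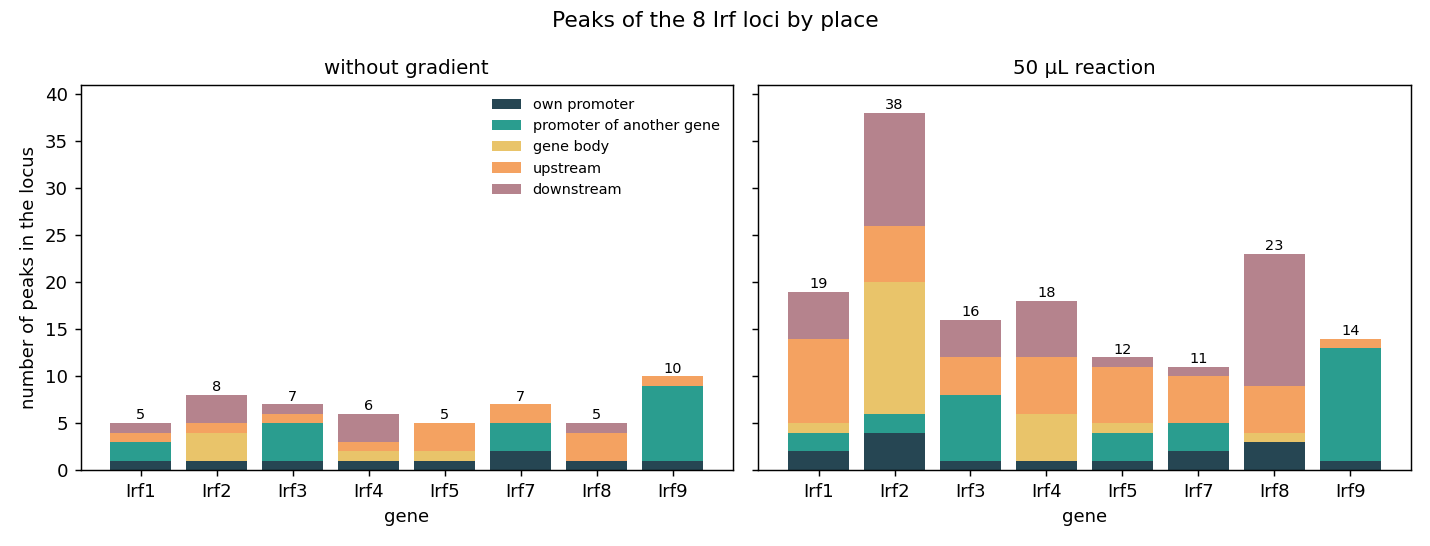
Number of peaks in each locus, split by place, for the library without gradient (left) and the 50 µL library (right). Stacks count peaks within 1 kb of a start site of the gene itself, within 1 kb of a start site of another gene, in the gene body, upstream and downstream, and the number above each bar is the total. Irf9 is almost all promoters of other genes, while Irf8 in the 50 µL library has 14 downstream peaks.

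By place, the 53 peaks without gradient were 9 at own promoters, 17 at promoters of other genes, 5 in gene bodies, 13 upstream and 9 downstream. The 151 peaks of the 50 µL library were 15, 29, 22, 42 and 43. Distal peaks were 27 of 53, or 50.9% (exact 95% interval 36.8 to 64.9%), beside 55.9% of all peaks in the library without gradient. They were 107 of 151, or 70.9% (62.9 to 78.0%), beside 73.9% of all peaks in the 50 µL library. Both all-peak shares lie inside the intervals of the loci. These intervals cover counting error only. Median fold enrichment was 4.68 in the loci and 5.24 over all peaks without gradient, and 2.87 and 3.29 in the 50 µL library.

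Of the 53 peaks without gradient, 49 overlapped a peak of the 50 µL library by at least 1 bp, or 92.5% (81.8 to 97.9%), beside 95.3% of all peaks. In the other direction 49 of 151 overlapped, or 32.5% (25.1 to 40.5%), beside 26.3%. The 4 peaks without a partner were the peaks without gradient nearest to Irf2 and Irf5 start sites, a peak at a Prmt1 promoter in the Irf3 locus and a peak at 36.5 kb downstream of the Irf4 start. Summits of the 49 shared peaks were a median of 55 bp apart, and 36 of the 49 lay within 100 bp. Among the 50 µL peaks of the loci the median −log10 q was 39.3 for the shared ones and 11.4 for the rest. The peaks of the loci seen in both lists were thus the more significant ones. The same medians over all peaks are not given here, so this is not shown to be particular to the loci. Of the 151 peaks, 50 were among the 25343 most significant of their list, beside 25343 of all 89382 peaks by the choice of that number.

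Motifs were then searched on both strands in the 200 bp around each summit. The motifs were ISRE and EICE as above, AICE (GAAA directly before TGANTCA), GAS (TTCNNNGAA), PU.1 (GAGGAAGT), AP-1 (TGANTCA) and kappaB (GGGA, 2 bases, TTCC). AICE contains the AP-1 pattern, and 1 stretch can hold overlapping ISRE and EICE matches. Windows with matches, some of which are described next, are printed here with the matches in capitals. The windows are read from the plus strand of GRCm38, so that a match to the minus strand reads as its reverse complement. They were chosen after their matches were seen, as distal sites with matches in peaks among the more significant of their lists. The windows are chr8:46789581-46789780 in an Irf2 intron, chr13:30728367-30728566 and chr13:30737432-30737631 upstream of Irf4, chr6:29513346-29513545 upstream of Irf5, chr8:120715388-120715587 upstream of Irf8 and chr8:120799914-120800113 downstream of Irf8.
Irf2 intron, EICE: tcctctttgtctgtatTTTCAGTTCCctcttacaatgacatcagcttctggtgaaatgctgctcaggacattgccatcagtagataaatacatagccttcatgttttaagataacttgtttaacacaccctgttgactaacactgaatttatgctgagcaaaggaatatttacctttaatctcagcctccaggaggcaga
Irf4 upstream, EICE: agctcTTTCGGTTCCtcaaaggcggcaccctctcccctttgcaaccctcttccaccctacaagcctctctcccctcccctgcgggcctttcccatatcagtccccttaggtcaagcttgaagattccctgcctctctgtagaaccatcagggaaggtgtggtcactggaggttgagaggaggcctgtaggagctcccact
Irf4 upstream, AP-1: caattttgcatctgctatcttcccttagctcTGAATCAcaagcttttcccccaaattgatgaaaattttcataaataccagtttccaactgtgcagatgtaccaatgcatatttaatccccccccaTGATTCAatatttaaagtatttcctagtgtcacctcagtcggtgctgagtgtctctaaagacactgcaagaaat
Irf5 upstream, GAS: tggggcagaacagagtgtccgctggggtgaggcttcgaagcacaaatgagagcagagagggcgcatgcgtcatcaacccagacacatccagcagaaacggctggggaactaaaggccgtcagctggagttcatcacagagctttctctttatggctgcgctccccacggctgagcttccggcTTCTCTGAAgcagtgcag
Irf8 upstream, GAS and AP-1: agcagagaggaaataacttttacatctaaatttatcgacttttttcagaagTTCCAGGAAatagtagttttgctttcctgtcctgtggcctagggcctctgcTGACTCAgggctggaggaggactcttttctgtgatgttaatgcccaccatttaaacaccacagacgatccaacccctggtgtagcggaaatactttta
Irf8 downstream, GAS: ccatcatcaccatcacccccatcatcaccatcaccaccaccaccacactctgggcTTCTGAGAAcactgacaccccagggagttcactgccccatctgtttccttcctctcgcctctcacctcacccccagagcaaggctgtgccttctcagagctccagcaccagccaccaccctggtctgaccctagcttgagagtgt

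EICE was the most frequent of the 7 motifs in the 50 µL peaks of the loci, in 11 of 151, or 7.28% (3.69 to 12.7%), beside 3.13% of all peaks of that list. In the library without gradient it was in 3 of 53, or 5.66% (1.18 to 15.7%), beside 3.40%. The all-peak share lay below the interval in the 50 µL library and inside it in the library without gradient. EICE was singled out from 7 motifs in 2 libraries, and the intervals were not widened for that number of comparisons. A window of 200 bp can also reach past the edge of a narrow peak. Over whole peaks in place of 200 bp, EICE was in 15 of 151 peaks of the 50 µL library, or 9.93% (5.67 to 15.9%), beside 6.14%, which lay inside the interval, so the separation was seen near summits alone. These 14 peaks were in the loci of Irf2, Irf3, Irf4, Irf5 and Irf9, and none were in those of Irf1, Irf7 or Irf8. The Irf2 intronic site at 49.9 kb carried the match in both libraries, as did the Psme1 promoter in the Irf9 locus, where an ISRE match stood in the same window.

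The shares of the other motifs in the loci rest on 0 to 10 peaks each. ISRE was in 5 of 151 peaks of the 50 µL library, or 3.31% beside 3.52%, and in 1 of 53 without gradient, or 1.89% beside 3.03%. GAS was in 5 of 151, or 3.31% beside 5.50%, and in 4 of 53, or 7.55% beside 5.95%. AP-1 was in 10 of 151, or 6.62% beside 5.39%, and in 2 of 53, or 3.77% beside 5.02%, and 4 of the 12 were in the Irf4 locus. PU.1 was in 2 of 151, or 1.32% beside 3.80%, and in 1 of 53, or 1.89% beside 5.04%, kappaB was in 1 peak of each library, and AICE was in none, beside 0.0886% and 0.0710% of all peaks. PU.1 was thus less frequent in the loci than in both lists, from 2 peaks and 1 peak. For all of these motifs the all-peak share lay inside the interval of the loci, which is wide at these counts. At Irf5 the GAS match at −13.1 and −13.2 kb was in the window of both libraries. At Irf8 the window at −20.9 kb without gradient held GAS and AP-1 matches, and the window of the 50 µL peak, whose summit was 180 bp away, held no match.

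**Figure D5:**
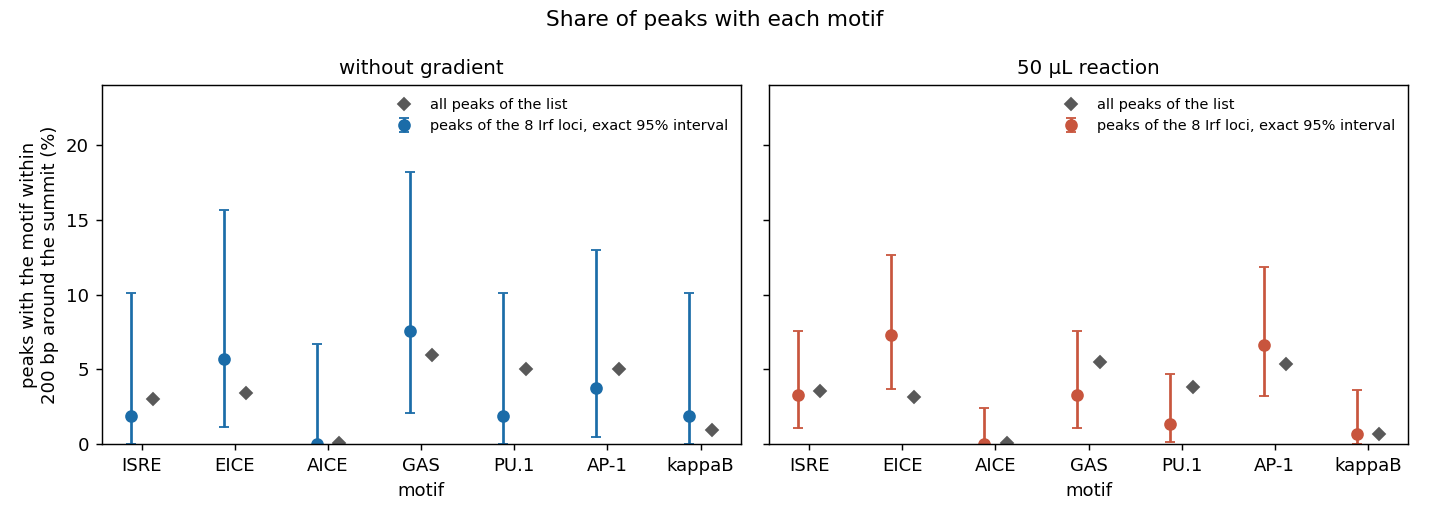
Share of peaks with each of the 7 motifs in the 200 bp around the summit, in percent, for the library without gradient (left) and the 50 µL library (right). Coloured points are the peaks of the 8 loci with exact 95% intervals and grey diamonds are all peaks of the list. EICE in the 50 µL library, at 7.28% with an interval from 3.69%, is the only one of the 7 motifs in the 2 libraries whose interval lies wholly above the diamond, at 3.13%. The intervals are not widened for the number of comparisons.

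The genes of the interferon pathway around the family were counted in the same way. Of 6 interferon receptor subunits, 5 had a promoter peak without gradient and 6 in the 50 µL library, led by Ifngr1, a chain of the interferon gamma receptor, at a −log10 q of 52.4 and Il10rb, a chain of the interferon lambda receptor, at 47.3. Of 8 JAK-STAT genes, 7 and 8 had one, led by the inhibitor Socs1 at 69.7 and the kinase Tyk2 at 63.4. Of 17 sensors and adaptors, 12 and 17 had one, led by the adaptor Myd88 at 75.7 and the kinase Irak4 at 64.7. All values named are from the 50 µL library. Of 14 partner factors of the family, 5 had a promoter peak without gradient and 14 in the 50 µL library, led by Batf2 at 64.7 and Prdm1, the plasma cell repressor, at 49.2.

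Of the 20 target genes found in the annotation as protein-coding, 10 had a promoter peak without gradient and 18 in the 50 µL library. They were led by the antiviral genes Rsad2 at 60.8 and Bst2 at 53.3, while Ifi44 and Ifit3 had none in either library. In the library without gradient the shares per list ran from 35.7% for partner factors to 87.5% for JAK-STAT genes, beside 43.7% of all genes. In the 50 µL library they ran from 90.0% to 100.0%, beside 56.6%.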

How the data were processed

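Peaks of 2 libraries of mouse FFPE spleen, 1 per condition, were analysed. Per the study's methods the authors aligned reads to mm10 with BWA, sorted them with SAMtools, removed duplicates, called peaks with MACS2 without a shift for Tn5 insertions and removed blacklisted regions (summits are thus not centred on Tn5 cuts). Per the submitters' processing notes, SAMtools and BWA were used, with mm10 and hg38 as builds. In the deposited lists, fold enrichment is the ratio of pileup to local background, and significance is given as −log10 q and −log10 p. The −log10 p and the integer display score in the deposited lists were not used.

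Peaks were placed on GRCm38 with GENCODE vM21, and 166 peaks of the 50 µL list on unplaced or alternate scaffolds lay outside this comparison. A promoter peak lay within 1 kb of a start site and a shared peak overlapped by at least 1 bp. Percentiles rank protein-coding genes within a list. Intervals are exact Clopper-Pearson 95% intervals and cover counting error only. Scripts used Python 3.11.15 with scipy 1.17.1, pandas 2.3.3, matplotlib 3.10.9 and numpy 2.4.6, and were tested on simulated peaks. Promoter sequences are from RefSeq on GRCm38.p6, with 11 entries matching all 8 members by symbol.

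The members, gene lists and motifs were chosen with earlier results of these data known. Genes named are the members, genes with a start site within 1 kb of a peak in a locus, and the 2 genes of each pathway list with the most significant 50 µL promoter peak. Ifi44, Ifit3, Tsks, the other markers and the printed distal windows were named after their values were seen. Peaks named are the most significant promoter and distal peak of each member and those downstream of Irf8; others were chosen after their values were seen. With 1 library per condition no test was run. Alternatives changed the flank, promoter window, start-site set, peak threshold, list length, overlap rule and motif window.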

Additional observations from a re-analysis of the deposited data

How the results depend on the processing

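The limits are those of 2 lists without replicates. Reads and cells per library were not used here, and the 50 µL list is longer, so counts and −log10 q cannot be compared between the libraries as accessibility. No paired analysis was possible because each condition has 1 library and no result comes from a test. The cause of each change listed here was not tested unless the setting itself removes or adds peaks.

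Loci with flanks of 25 kb held 35 peaks without gradient and 98 in the 50 µL library, and flanks of 100 kb gave 88 and 250. With fold enrichment of at least 4, 5 members (Irf3, Irf4, Irf5, Irf7, Irf9) kept a promoter peak without gradient, beside 39.9% of genes, and 4 (Irf3, Irf7, Irf8, Irf9) in the 50 µL library, beside 38.4%. The 50 µL loci then held 33 peaks, 15 of them distal, and 19 of 37 peaks without gradient had a partner. With −log10 q above 5 the share of genes without gradient was 42.3%, and 7 members, all but Irf2, had a promoter peak. Cutting the 50 µL list to the length of the other left 50 peaks, 23 of them distal, and promoter peaks at 7 members, all but Irf5, beside 45.2% of genes. Promoter windows of 500 bp gave 6 and 8 members with a promoter peak, beside 41.8% and 54.5% of genes. Irf2 and Irf5 were the members lost without gradient. Windows of 3 kb gave 8 and 8 members, beside 47.7% and 61.3%. The 5′ end alone gave 6 and 7 members, beside 39.6% and 51.9%. Over 3 kb from every start site lay 17 peaks without gradient. Counting only overlaps of 50% of both peaks, 30 of 53 were shared. For this rule and for fold enrichment of at least 4, the shared part of all peaks is not given here. These 2 counts therefore cannot be read as results about the loci.

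Motif shares scale with the window. With 100 bp, ISRE and PU.1 without gradient and kappaB in the 50 µL library fell to 0% of the peaks of the loci, and AP-1 in the 50 µL library was in 2.65%. Over whole peaks of the 50 µL loci GAS was in 12.6%, PU.1 in 6.62% and AP-1 in 13.9%. Over all peaks without gradient, the shares with 100 bp and over whole peaks were 1.37% and 4.89% for ISRE, 1.499% and 5.26% for EICE, 0.0355% and 0.130% for AICE, 2.87% and 9.71% for GAS, 2.32% and 7.28% for PU.1, 2.43% and 8.02% for AP-1, and 0.450% and 1.64% for kappaB. Over all 50 µL peaks they were 1.65% and 7.09% for ISRE, 1.42% and 6.14% for EICE, 0.0370% and 0.202% for AICE, 2.57% and 11.3% for GAS, 1.63% and 7.08% for PU.1, 2.46% and 10.7% for AP-1, and 0.307% and 1.63% for kappaB. EICE in the 50 µL loci was in 3.97% (1.47 to 8.45%) with 100 bp and in 9.93% (5.67 to 15.9%) over whole peaks, so the all-peak share lay just below the first interval and inside the second. The 39 remaining values, some of them given above, moved by at most 1.5 times or within their intervals.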
